A study of Mus musculus with 8 samples.

Results

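The nuclear genes of respiratory chain complexes I to IV were examined in mouse small intestinal crypts, the pockets of epithelium in which the intestinal stem cells lie. Members were the protein-coding rows outside the mitochondrial genome whose names begin with Nduf (complex I), Uqcr (complex III) or Cox4 to Cox8 (complex IV), together with Sdha, Sdhb, Sdhc and Sdhd (complex II). This rule, which uses names alone, gave 77 of 55880 genes, or 77 of 21933 protein-coding genes: 47 for complex I, 4 for complex II, 8 for complex III and 18 for complex IV. The name rule places Ndufa4 with complex I, although its protein is now known to sit in complex IV, and takes 8 complex I assembly factors (Ndufaf names) along with the subunits.

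The series holds 8 RNA-seq libraries of C57BL/6N mice before irradiation, 4 labelled WT and 4 labelled miR-29ab1-/-, a strain meant to lack the genes of miR-29a and miR-29b-1. No age, sex, litter or day is given in the labels, and the extent of the deletion stays undescribed (not given in the sources used here). Energy metabolism by fatty acid oxidation is what the series title links to miR-29ab, and that pathway delivers its electrons to the respiratory chain. The p-values below measure the spread between these 8 libraries, since no label says that they came from separate litters or cultures.

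The respiratory chain sits in the inner mitochondrial membrane. Complex I takes electrons from NADH and complex II takes them from succinate; both pass them through ubiquinone to complex III, and cytochrome c carries them on to complex IV, which reduces oxygen. Complexes I, III and IV pump protons, and the gradient drives ATP synthase, often called complex V. The mitochondrial genome encodes only a few central subunits of complexes I, III, IV and V, and the nucleus encodes the rest, with all of complex II. In the intestine, differentiated enterocytes are known to be rich in mitochondria.

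Library totals ranged from 13879472 to 17368666 counts. Of the targeted genes, Mir29a had 0 counts in each library, and Mir29b-1 had 2 to 7 counts in the libraries labelled knockout and 0 in those labelled wild type. The untargeted Mir29b-2 and Mir29c also had 0 counts in each library, so a hairpin count of 0 says little here. The few Mir29b-1 counts go against the label taken at face value but cannot decide the genotype. Groups are therefore called by their labels throughout. All 9 crypt epithelium markers were tested (median 836 CPM, counts scaled to library size) and so were all 7 stem cell markers (median 114 CPM). Markers of some other cells in the wall were scarce: 1 of 7 fibroblast and muscle markers and 2 of 4 endothelial markers passed the filter on low counts. Markers of blood and immune cells mostly passed it, at lower levels than the crypt markers. These were 9 of 9 for T cells (median 9.29 CPM), 6 of 6 for B and plasma cells (6.02), 5 of 6 for myeloid cells (2.46) and 4 of 5 for red blood cells (3.38). In bulk RNA, fewer cells of a type and less RNA per cell cannot be told apart.

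No respiratory chain gene passed the test between the groups. Of the 77 members, 70 passed the filter on low counts (45, 4, 8 and 13 for complexes I to IV) and 0 of the 70 passed an adjusted p of 0.05 in edgeR's quasi-likelihood test, against 3 of 14897 genes tested (0.0201%). Adjusted p-values of the members were 0.994 to 0.999. DESeq2 also called 0 of 70 members, with 0.151% of its genes called, and limma-voom called 0 of 70, with 0.0134% called. At an unadjusted edgeR p under 0.05, 1 member was lower in the libraries labelled knockout (1.43%, against 0.832% of all genes tested) and 0 were higher, against 1.87% of all genes tested. In the authors' deposited table, 1 of 74 members with a p had an unadjusted p under 0.05, and 0 had an adjusted one.

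Most of the differences, though small, had the same sign. A log2 fold change (labelled knockout over wild type) below 0 was found for 59 of 70 members (84.3%), against 48.0% of all genes tested. The members' median was -0.15 (quartiles -0.21 and -0.055), whereas that of all genes tested was 0.011. The medians of complexes I, II, III and IV were -0.18, -0.18, -0.12 and -0.11, with 40 of 45, 4 of 4, 6 of 8 and 9 of 13 members below 0. The values of single members were the size of their errors: the approximate SE of a member's log2 fold change ran from 0.097 (Ndufa7) to 0.50 (Cox6b2). Such an SE does not measure the error of a median over members. In 0 of 70 members did the labelled knockout libraries all lie below the wild-type libraries, against 0.618% of all genes tested.

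**Figure D1:**
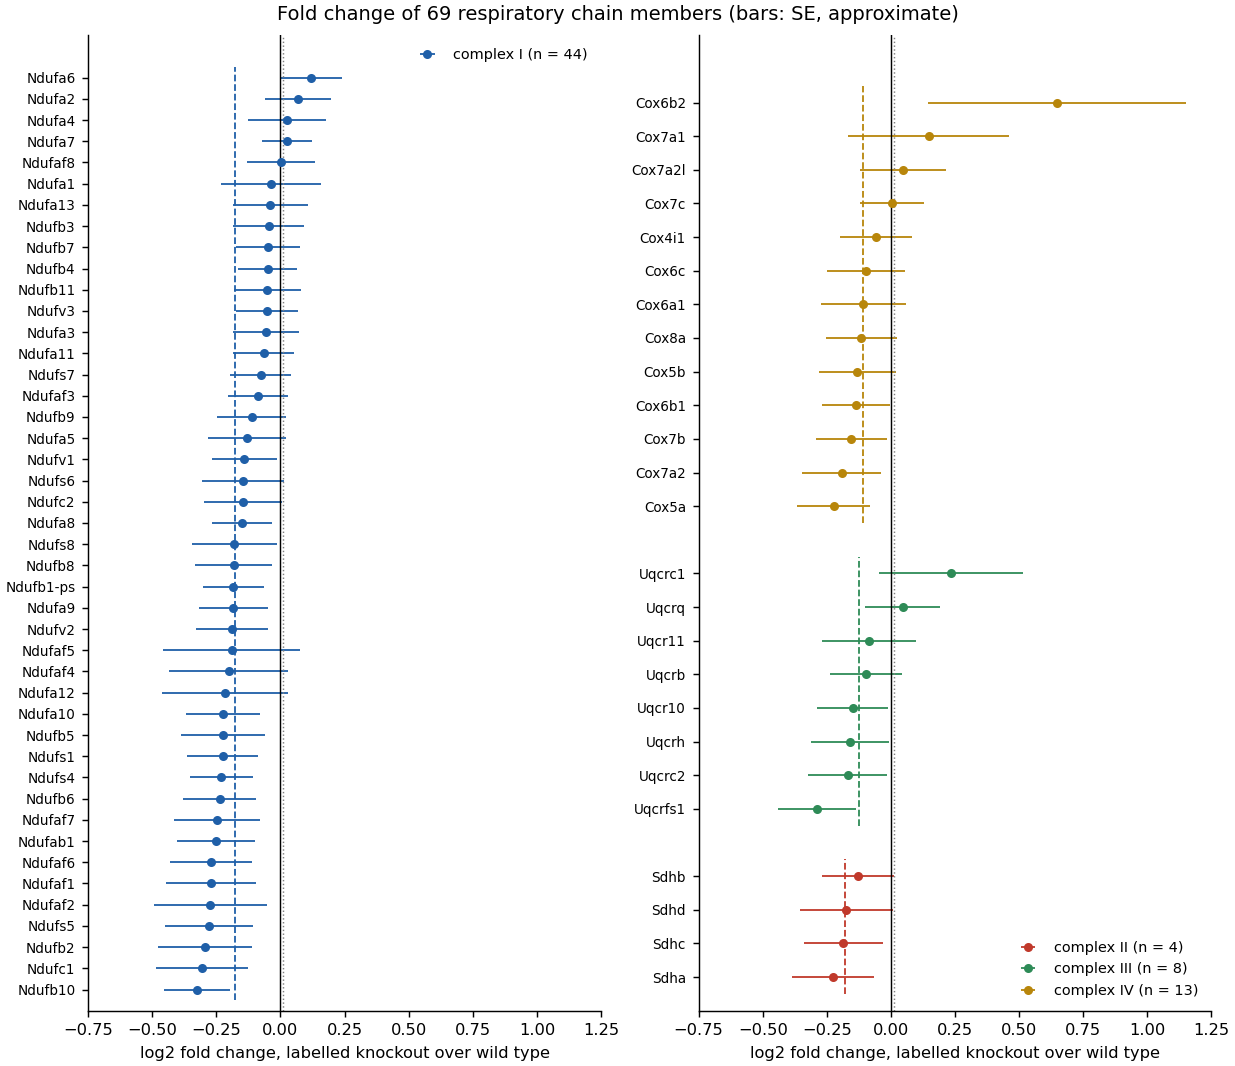
Log2 fold change of 69 of the 70 tested members, labelled knockout over wild type (4 libraries each), with bars for the approximate SE; dashed lines mark the median of each complex and the dotted line that of all genes tested. Most points lie a little below 0, and Cox6b2 at 0.65 lies farthest to the right with the widest bar.

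The size of this shift varied with the libraries that entered it. For each member, the log2 CPM in a library was set against the member's own mean over the 8 libraries, and these deviations were averaged. Over all 70 members the mean deviations were -0.10, 0.019, 0.067 and 0.27 in wild type replicates 1 to 4, and 0.042, -0.078, -0.033 and -0.18 in labelled knockout replicates 1 to 4. The groups overlapped, since wild type replicate 1 lay below 3 of the 4 libraries labelled knockout. Wild type replicate 4 stood highest and labelled knockout replicate 4 lowest. As shares of all counts in a library, members made up 0.852%, 0.827%, 0.846% and 1.03% in wild type and 0.836%, 0.739%, 0.919% and 0.606% in the libraries labelled knockout. These shares are of unscaled totals and order some libraries otherwise. By share wild type replicate 1 lay above labelled knockout replicate 1, whereas by deviation it lay below it. The highest and the lowest library were the same by both measures.

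Gene by gene, wild type replicate 4 held the highest level of 50 of 70 members (71.4%), whereas it held the highest level of 9.04% of all genes tested. Labelled knockout replicate 4 held the lowest level of 28 of 70 members (40.0%), against 29.1% of all genes tested. Without wild type replicate 4, the members' median log2 fold change was -0.075, with 48 of 70 below 0, and without labelled knockout replicate 4 it was -0.11, with 60 of 70 below 0. With both left out, which was chosen after the data were seen and because these libraries held the extreme levels, it was -0.022 with 44 of 70 below 0; leaving out the highest wild-type and the lowest labelled knockout library makes the difference smaller by construction. Other libraries left out made it larger, with -0.19 and 61 of 70 below 0 without wild type replicate 1, and -0.18 and 65 of 70 without labelled knockout replicate 1. For complex I alone the medians were -0.079 without wild type replicate 4, -0.098 without labelled knockout replicate 4 and -0.023 without both.

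Wild type replicate 4 was the highest library for each complex, and the complexes parted in other libraries. Complex I had mean deviations of -0.066, 0.0084, 0.075 and 0.28 in wild type replicates 1 to 4 and 0.020, -0.059, -0.017 and -0.24 in labelled knockout replicates 1 to 4. Complex II had -0.16, 0.20, 0.040 and 0.28 in wild type and 0.061, -0.22, 0.034 and -0.22 in the libraries labelled knockout. Complex III had -0.14, 0.011, 0.053 and 0.26, then 0.16, -0.13, 0.0073 and -0.21. Complex II thus stood above complexes I and III in wild type replicate 2, and complex III above the other complexes in labelled knockout replicate 1. Complex IV had -0.19, 0.0039, 0.057 and 0.23 in wild type and 0.041, -0.069, -0.14 and 0.058 in the libraries labelled knockout, which is below the other complexes in labelled knockout replicate 3 and above them in replicate 4. Among the 10 constitutive nuclear subunits of complex IV the value in labelled knockout replicate 4 was -0.12, so that the isoform genes Cox6b2 and Cox7a1, described further on, set the sign. Within complex I the 6 tested core subunits (-0.36) and the 8 assembly factors (-0.38) were lower in that library than the 31 accessory subunits (-0.18).

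Other gene groups also stood off their means in labelled knockout replicate 4, and some did in wild type replicate 4. In labelled knockout replicate 4, 14 cell cycle genes stood at -0.87, 77 cytosolic ribosomal protein genes at -0.38, 76 mitochondrial ribosomal protein genes at -0.42 and 7 stem cell markers at -0.64, while 9 enterocyte markers stood at 1.18 and 4 red blood cell markers at 2.30. Enterocyte markers were lowest in labelled knockout replicate 3 (-1.15) and wild type replicate 1 (-0.84). In wild type replicate 4 those lists were near their means or moderately off them, with cell cycle genes at 0.23, enterocyte markers at 0.12 and cytosolic ribosomal protein genes at 0.042, but red blood cell markers stood at -2.04 and tuft cell markers at 1.01. The 4 tested tuft cell markers were highest in that library, as the members were. They stood at -1.18 in labelled knockout replicate 4 and were lowest in wild type replicate 1 (-1.53). Across wild type and labelled knockout libraries, summed up as means of deviations, T cell markers ran from -0.28 to 0.94 and from -0.56 to 0.31, and B and plasma cell markers from -1.02 to 1.99 and from -0.97 to 0.69. By group, all 8 Paneth cell markers had a log2 fold change above 0 (median 0.49), as did all 4 tested red blood cell markers (median 1.47), and all 9 T cell markers (median -0.40), all 6 B and plasma cell markers (median -0.90), all 5 tested myeloid markers (median -0.29) and all 4 tested tuft cell markers (median -0.43) had one below 0. None of these marker genes passed the threshold. The part of these cell types and of growth state in the members' levels was not tested.

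**Figure D2:**
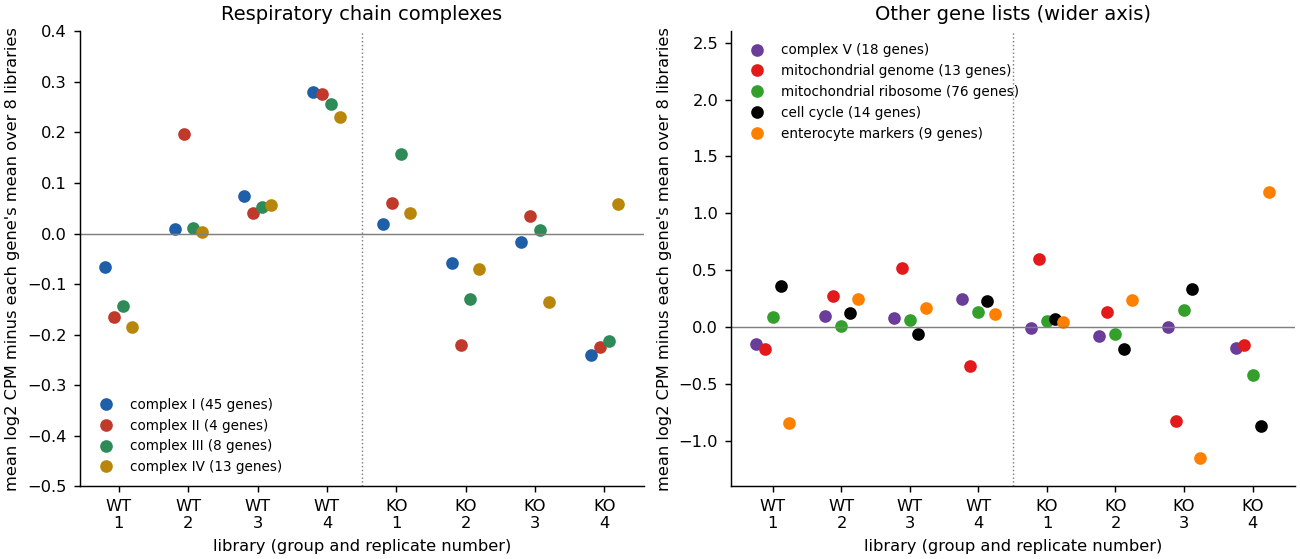
Mean deviation of log2 CPM from each gene's own mean, for the 8 libraries (WT, wild type; KO, labelled knockout), in complexes I to IV on the left and in 5 other gene lists on the right, where the axis is wider; points within a library are spread sideways only to be seen. Wild type replicate 4 is the highest library for each complex (0.28, 0.28, 0.26 and 0.23), and labelled knockout replicate 4 is the lowest for complexes I to III while its enterocyte markers are at 1.18 and its cell cycle genes at -0.87.

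Within the mitochondrial chain, the nuclear members and the genes of the mitochondrial genome parted in some libraries. The 13 mitochondrially encoded subunits had mean deviations of -0.19, 0.27, 0.51 and -0.34 in wild type and 0.59, 0.13, -0.82 and -0.16 in the libraries labelled knockout. They were thus below their mean in wild type replicate 4, where the nuclear members were highest. In labelled knockout replicate 2 the signs also differed (0.13, against -0.078 for the nuclear members), and in the remaining libraries they were alike. Labelled knockout minus wild type was -0.13 for both lists. The mitochondrial genome as a whole took 7.53%, 11.3%, 9.90% and 6.81% of counts in wild type and 11.6%, 8.54%, 6.70% and 6.31% in the libraries labelled knockout. Complex V, by contrast, had the profile of the nuclear members, with -0.15, 0.093, 0.080 and 0.25 in wild type and -0.0073, -0.079, -0.0035 and -0.18 in the libraries labelled knockout.

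Because so many members lay on the same side, their promoters were compared. Nuclear respiratory genes are textbook targets of nuclear respiratory factor 1 (NRF1) and of the ETS-family factor GABP (NRF2), and YY1 is known to bind near the start of several of them. RefSeq promoters (mouse assembly GRCm38.p6, 250 bases before to 50 after a start) were found for 61 of 77 members. GCGCATGC, the core of the NRF1 site, was searched on both strands and lay in 9 of 61 members (14.8%), in 3.05% of all 27025 genes with a promoter and in 5.73% of those tested here. AAGATGGCG, the YY1 core with its ATG, lay in 6 (9.84%), against 1.64% of all genes and 3.42% of those tested. CCGGAAGT, an ETS core, lay in 4 (6.56%), against 4.31% and 8.85%. These matches are letters in a window and do not show that a factor was bound.

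The NRF1 matches are shown for a member of each complex, to let the shared core be seen in otherwise unlike sequence. Capitals mark the match (or overlapping matches on both strands, since the core reads nearly the same on each), the sequence is that of the gene's strand, and positions are on GRCm38.p6. The windows are Ndufa6 at chr15:82354357-82354384 (minus strand), Sdhb at chr4:140961207-140961234 (plus), Uqcrc1 at chr9:108936668-108936697 (plus) and Cox6a1 at chr5:115349101-115349130 (minus).
Ndufa6: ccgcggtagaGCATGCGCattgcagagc
Sdhb: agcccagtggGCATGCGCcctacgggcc
Uqcrc1: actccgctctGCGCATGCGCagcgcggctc
Cox6a1: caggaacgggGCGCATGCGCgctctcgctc

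All 6 YY1 matches belonged to complex I, which holds 47 of the 77 members and most of the 61 that had a promoter. All lay 10 to 35 bases downstream of the RefSeq start, on the gene's strand. With the upstream bases alone, 0 of 61 members held that core, against 0.71% of all genes and 1.38% of those tested. The windows are Ndufa9 at chr6:126849097-126849125 (minus strand), Ndufc1 at chr3:51408915-51408943 (minus), Ndufs4 at chr13:114388045-114388069 (minus), Ndufs6 at chr13:73328433-73328459 (minus), Ndufs7 at chr10:80249463-80249491 (plus) and the assembly factor Ndufaf8 at chr11:120098934-120098962 (plus). Capitals again mark the match, whose ATG may serve as a start codon in some of them, which was not tested.
Ndufa9: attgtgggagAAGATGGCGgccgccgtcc
Ndufc1: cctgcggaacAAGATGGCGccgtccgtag
Ndufs4: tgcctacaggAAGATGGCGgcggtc
Ndufs6: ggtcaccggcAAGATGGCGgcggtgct
Ndufs7: ggccgaggccAAGATGGCGgcgctggcgg
Ndufaf8: ggcagggcccAAGATGGCGgcgccctcga

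Members with and without these cores had similar medians. The median log2 fold change was -0.11 for the 9 members with the NRF1 core and -0.15 for the 49 tested members without it. For the YY1 core it was -0.16 in 6 members and -0.14 in 52. For the ETS core it was -0.11 in 3 tested members and -0.15 in 55. Of the 9 members with the NRF1 core, Ndufa6 (0.12, the highest of complex I) and Uqcrc1 (0.24) lay above 0. The value of Uqcrc1 was -0.15 without labelled knockout replicate 1. All others lay below 0: Ndufaf4 (-0.20), Ndufaf5 (-0.19), Ndufa8 (-0.15), Sdhb (-0.13), Cox6a1 (-0.11), Uqcr11 (-0.086) and Ndufa11 (-0.066).

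Levels per length differed widely between members. In FPKM, fragments scaled to gene length and library size as the authors deposited them, means over the 8 libraries were highest for the complex IV subunits Cox6a1 (644), Cox8a (533.5) and Cox4i1 (334). The lowest tested members were Ndufb2 (1.99), the assembly factor Ndufaf2 (2.59) and Cox6b2 (4.08). Cox6a1 ranged from 547 to 811 and Cox8a from 492 to 657, so these neighbours in the order overlapped, while Cox4i1 ranged from 306 to 373, below both. Some members also varied widely between libraries, with Cox6b2 from 2.11 to 11.7, Cox7a1 from 34.0 to 103 and Uqcrc1 from 3.20 to 8.38. Complex I subunits had a median of 54.0 FPKM (37 genes), below complex II (117, 4 genes), complex III (136, 8 genes) and complex IV (123, 13 genes), and complex I assembly factors had 6.65 (8 genes). The lengths used are those of the deposited table, 5628 bases for Ndufb2 and 702 for Cox6a1, and a longer length at equal counts gives a lower FPKM.

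**Figure D3:**
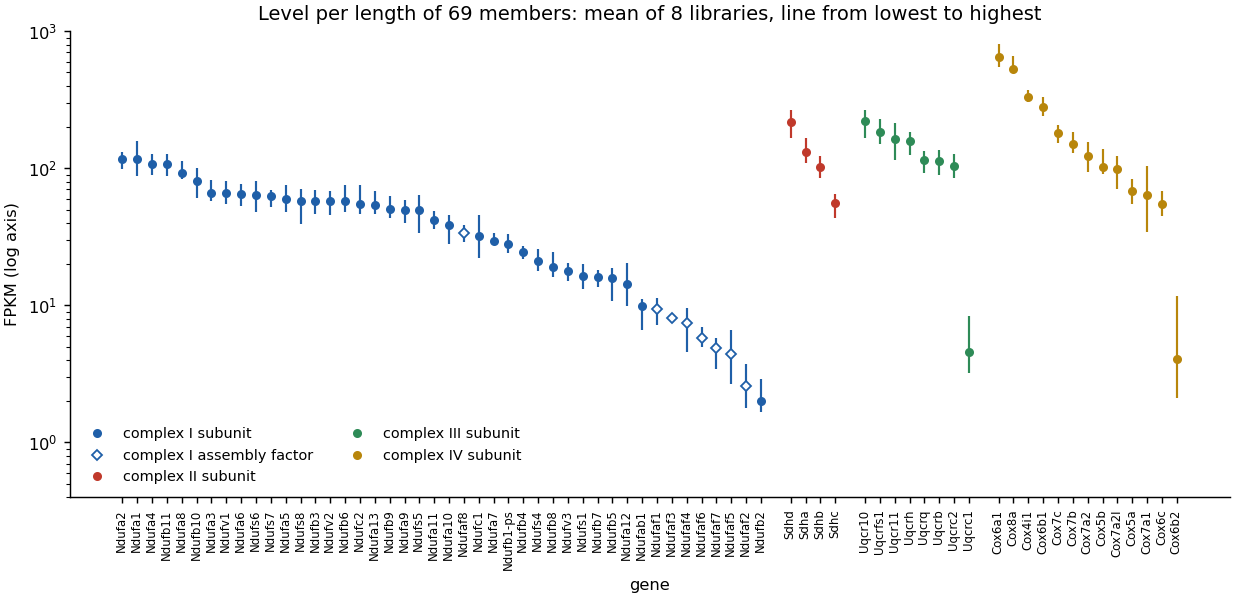
FPKM of 69 of the 70 tested members on a log axis, grouped by complex and ordered by level; points are means over 8 libraries and lines run from the lowest to the highest library. Cox6a1 (644) and Cox8a (533.5) lie at the top, complex I assembly factors (open diamonds) lie mostly under 10, and Uqcrc1 (4.55) and Cox6b2 (4.08) lie far under the other members of their complexes.

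Complex I holds a core that carries out catalysis, of which the nucleus encodes the matrix arm, and many accessory subunits around it. Each of the 6 tested core genes had a log2 fold change below 0, with a median of -0.18. Ndufv1, which holds the flavin that accepts electrons from NADH, stood at 170.0, 178, 176.5 and 213 CPM in wild type and 184, 166, 173 and 145 CPM in the libraries labelled knockout (log2 fold change -0.14, SE 0.13). Wild type replicate 4 was the highest library and labelled knockout replicate 4 the lowest, and the other 6 overlapped. Ndufv2, its iron-sulfur neighbour, had -0.19 (SE 0.14).

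Ndufs1, the largest iron-sulfur subunit of the matrix arm, had -0.23 (SE 0.14). Ndufs8, another iron-sulfur subunit, had -0.18 (SE 0.16), with 50.5 CPM in labelled knockout replicate 4 against 70.2 to 85.3 among the other 3 labelled knockout libraries and 71.8 to 92.2 in wild type. Ndufs7, which carries the last iron-sulfur cluster before ubiquinone, had -0.076 (SE 0.12). Without both libraries numbered 4, Ndufs7 and Ndufs8 had 0.033 and 0.025, above 0.

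Ndufs3, the remaining nuclear core gene, had 0 counts in each of the 8 libraries. A count of 0 allows up to 3 counts per library, and this holds for counting error only. It was not alone: along chromosome 2 from 90885860 to 91045729 (GRCm38), 159870 bases, 6 protein-coding genes in a row (C1qtnf4, Ndufs3, Kbtbd4, Ptpmt1, Celf1 and Rapsn) had at most 1 count per library and 2 counts in all. The genes on either side, Mtch2 and Psmc3, had 12834 and 13577 counts over the 8 libraries. The stretch was looked at after the value of Ndufs3 had been seen. Since it is empty in both groups, the value of Ndufs3 says nothing of its expression, and why it is empty was not tested.

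Among 31 tested accessory subunits of complex I, 27 had a log2 fold change below 0 and the median was -0.14. Ndufb10, an accessory subunit of the membrane arm, was the member with the smallest p. It stood at 92.3, 110.1, 112 and 123 CPM in wild type and 96.7, 88.7, 90.5 and 73.4 CPM in the libraries labelled knockout. Labelled knockout replicate 1 lay above wild type replicate 1, so the groups overlapped. The log2 fold change of Ndufb10 came to -0.33 (SE 0.13), which is 20.2% lower (edgeR quasi-likelihood test, unadjusted p = 0.0321, adjusted p = 0.994), and it ran from -0.40 to -0.25 when libraries were left out in turn.

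Ndufs4, Ndufa6, Ndufa2 and Ndufa7 are named by the rule that takes the smallest p in each direction. Ndufs4, which helps hold the NADH module in place, had -0.23 (SE 0.12), with 50.2, 66.7, 59.5 and 69.96 CPM in wild type and 52.8, 49.2, 55.9 and 52.0 in the libraries labelled knockout. All 4 of the latter lay within 49.2 to 55.9 CPM, and only wild type replicate 1 reached down into that range. Ndufa6, a subunit of the LYR protein family, had 0.12 (SE 0.12), with 96.8, 119, 117 and 117 CPM in wild type and 123, 118, 108 and 139 in the libraries labelled knockout. Ndufa2 and Ndufa7 had 0.068 (SE 0.13) and 0.027 (SE 0.097).

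By name series, all 11 Ndufb genes, which mostly belong to the membrane arm, had values below 0 (median -0.18), as did all 7 tested Ndufs and all 3 Ndufv genes. Of 14 tested Ndufa genes, 10 had values below 0 (median -0.062). Ndufab1, the mitochondrial acyl carrier protein that also serves lipoic acid synthesis, had -0.25 (SE 0.15), with 45.2 CPM in labelled knockout replicate 4 and 60.2 to 77.2 in the other 7 libraries. Ndufc1 had -0.31 (SE 0.18) and Ndufb2 -0.29 (SE 0.18), the values nearest to that of Ndufb10 within complex I.

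The 8 assembly factors, proteins that build complex I but are not part of it, had a median of -0.23 and 7 of 8 values below 0. Ndufaf6 stood at 7.11, 8.53, 7.43 and 8.68 CPM in wild type and 6.32, 6.18, 7.43 and 6.34 CPM in the libraries labelled knockout (log2 fold change -0.27, SE 0.16). Labelled knockout replicate 3 alone reached the wild-type range. Ndufaf4 and Ndufaf5 had the lowest deviations of any member in labelled knockout replicate 4, both -0.69, and in labelled knockout replicate 3 they stood above their means, at 0.39 and 0.61.

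Complex II, which links the citric acid cycle to the chain, is encoded by the nucleus alone. All 4 genes had values below 0. Sdha, the flavoprotein that oxidises succinate, stood at 548, 607, 509.7 and 693 CPM in wild type and 519.8, 457, 556.5 and 484 CPM in the libraries labelled knockout (log2 fold change -0.23, SE 0.16). Wild type replicate 4 exceeded the other 7 libraries, and labelled knockout replicates 2 and 4 lay below the wild-type range.

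Sdhb, the iron-sulfur subunit, had -0.13 (SE 0.14), and wild type replicate 1 (194 CPM) lay below all 4 libraries labelled knockout (208 to 243.5). The membrane anchors Sdhc and Sdhd had -0.19 (SE 0.15) and -0.17 (SE 0.18). Sdhd was the most abundant complex II gene per length (218 FPKM) and ranged from 209 to 329 CPM in wild type and from 211 to 290.1 in the libraries labelled knockout. The median of complex II was -0.12 without labelled knockout replicate 4 and -0.067 without both libraries numbered 4.

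In complex III the catalytic Rieske iron-sulfur protein, Uqcrfs1, had the largest difference below 0. It stood at 214, 303, 278 and 314 CPM in wild type and 235, 216, 252 and 206 CPM in the libraries labelled knockout. Wild type replicate 1 fell among the libraries labelled knockout and the other 3 wild-type libraries lay above them (log2 fold change -0.29, SE 0.15). The value was -0.39 without wild type replicate 1 and -0.23 without wild type replicate 4.

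The core proteins Uqcrc1 and Uqcrc2, which form a pair on the matrix side, were counted at very different levels. Uqcrc2 had 103 FPKM and Uqcrc1 had 4.55 FPKM, although the proteins are partners in the same complex. Uqcrc1 stood at 14.7, 17.7, 18.3 and 18.9 CPM in wild type and 35.0, 13.4, 17.9 and 15.8 CPM in the libraries labelled knockout. Labelled knockout replicate 1 carried its log2 fold change of 0.24 (SE 0.28), which was -0.15 without that library. Uqcrc2 had -0.17 (SE 0.15).

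Of the 5 small accessory subunits of complex III, 4 had values below 0. Uqcr10 had -0.15 (SE 0.14), with 97.7 CPM in labelled knockout replicate 4 and 129 to 157 in the other 7 libraries. Uqcrq had 0.046 (SE 0.15). Leaving out wild type replicate 4 gave complex III a median of -0.064. It was -0.063 with labelled knockout replicate 4 left out, -0.19 with wild type replicate 1 left out and -0.0053 with both libraries numbered 4 left out.

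Complex IV has a catalytic core made in the mitochondrion and a coat of nuclear subunits, several with isoforms of muscle, lung, testis or low oxygen. Of its 10 constitutive nuclear genes, 9 had values below 0 (median -0.12). Cox5a had the largest of these, -0.22 (SE 0.14), with 122, 177, 154 and 167.5 CPM in wild type and 145, 133, 137 and 116 in the libraries labelled knockout. Wild type replicate 1 lay among the libraries labelled knockout and the other 3 above them. Cox5b, which binds zinc, had -0.13 (SE 0.15), and 0.0084 without wild type replicate 4, which at 221 CPM stood apart from the 148 to 166 of the other 3 wild-type libraries.

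Cox4i1, the largest nuclear subunit, differed little, with 488, 499.7, 559 and 582 CPM in wild type and 544, 504.5, 477.5 and 519 in the libraries labelled knockout (log2 fold change -0.058, SE 0.14). Cox6a1, Cox6b1, Cox7a2, Cox7b and Cox8a had values from -0.19 (Cox7a2, SE 0.15) to -0.11 (Cox6a1, SE 0.17). Cox7a2l, known as a supercomplex factor, had 0.047 (SE 0.17). It ranged from 139 to 153 CPM in wild type and from 104 to 184 in the libraries labelled knockout, a wider spread in the second group. The median of complex IV was -0.0047 without wild type replicate 4, -0.18 without wild type replicate 1 and -0.020 without both libraries numbered 4.

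The tissue isoforms were nearly silent, with the exception of Cox7a1 and, at a low level, Cox6b2. Over all 8 libraries Cox6a2 of heart and muscle had 41 counts, Cox4i2 of lung 2, Cox8b of heart and muscle 2 and the testis genes Cox7b2 and Cox8c 0 each, which allows up to 3 counts per library. Ndufa4l2, induced by low oxygen, had 7. These 6 genes and Ndufs3 are the 7 members that did not pass the filter. As shares of the FPKM of isoform and common partner together, Cox6a2 and Ndufa4l2 reached at most 0.19% and 0.21% in any library, Cox4i2 and Cox8b at most 0.027% and 0.033%.

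Cox7a1, the isoform known from heart and muscle, was counted at 22.5, 28.8, 38.0 and 40.9 CPM in wild type and 37.7, 33.2, 18.3 and 55.2 CPM in the libraries labelled knockout. Both the highest and the lowest of the 8 libraries belonged to the group labelled knockout (log2 fold change 0.15, SE 0.31). Its share of Cox7a1 and Cox7a2 together was 31.4% ± 2.97 in wild type and 36.0% ± 11.5 in the libraries labelled knockout (SD, n = 4 each). That share was 30.4%, 27.7%, 34.5% and 32.8% in wild type and 38.4%, 35.7%, 20.9% and 48.9% in the libraries labelled knockout.

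The enterocyte markers were lowest and highest in the same labelled knockout libraries as Cox7a1. Their mean deviation was -0.84, 0.24, 0.17 and 0.12 in wild type and 0.046, 0.23, -1.15 and 1.18 in the libraries labelled knockout, so that replicate 3 of that group was lowest and replicate 4 highest. Over all genes tested, labelled knockout replicate 4 was highest for 26.9% and labelled knockout replicate 3 lowest for 15.6%. Within wild type, replicate 2 had the highest enterocyte markers and the lowest Cox7a1 share (27.7%). Of the 7 fibroblast and muscle markers only Col3a1 was tested, at 0.13 to 10.2 CPM, and it was 1.06 CPM in labelled knockout replicate 3 and 2.98 in replicate 4. Its highest value, 10.2 CPM, was in wild type replicate 1, where Cox7a1 stood at 22.5 CPM, its second lowest value. The part of enterocytes, or of muscle and other cells of the wall, in the level of Cox7a1 was not tested.

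**Figure D4:**
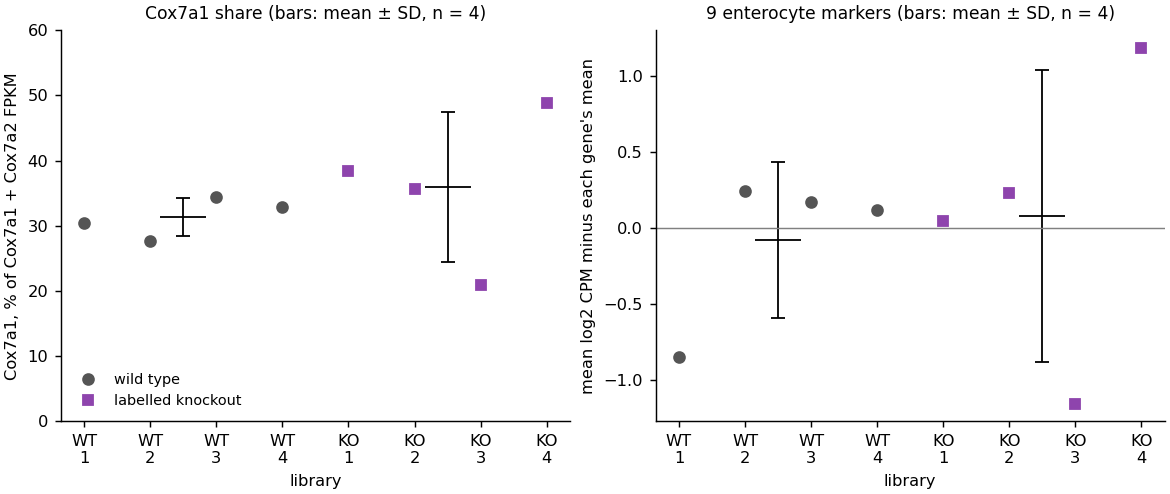
Share of Cox7a1 in the summed FPKM of Cox7a1 and Cox7a2 (left, percent) and mean deviation of 9 enterocyte markers (right, log2 CPM) in the 8 libraries (WT, wild type; KO, labelled knockout), with the group mean and SD (n = 4). Labelled knockout replicate 3 (20.9%, -1.15) is lowest and labelled knockout replicate 4 (48.9%, 1.18) highest in both panels, and wild type shares lie between 27.7% and 34.5%.

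Cox6b2, an isoform known from testis, had the largest difference of any member, and it came from 1 library. It stood at 4.23, 2.88, 3.45 and 3.57 CPM in wild type and 3.68, 3.32, 2.36 and 12.9 CPM in the libraries labelled knockout. Its log2 fold change was 0.65 (SE 0.50), and -0.18 without labelled knockout replicate 4. Its share of Cox6b1 and Cox6b2 together was 4.49% in that library and 0.78% to 1.54% in the other 7.

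Genes that work beside complexes I to IV gave a like picture, and none of them passed the threshold. All 18 tested genes of complex V had values below 0 (median -0.14), with Atp5mpl, a small subunit, at -0.21 (SE 0.13) and Atp5j at -0.18 (SE 0.12). Cyc1, the cytochrome c1 of complex III that the name rule leaves out, had -0.22 (SE 0.15), and Cycs, cytochrome c itself, -0.15 (SE 0.22). Of 44 tested assembly factors outside the name rule, 31 had values below 0 (median -0.079). Cox11, which delivers copper to complex IV, went the other way at 0.50 (SE 0.17, edgeR unadjusted p = 0.0151, adjusted p = 0.994), and Lyrm7, a chaperone of the Rieske protein, had -0.60 (SE 0.31).

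The groups of Cox11 did not overlap, 1 of these 44 genes, where 0.913% of all genes tested did not overlap with the labelled knockout libraries higher. It stood at 8.27, 7.65, 9.88 and 8.07 CPM in wild type and 12.4, 11.2, 9.90 and 14.6 CPM in the libraries labelled knockout, with wild type replicate 3 and labelled knockout replicate 3 nearly level. Of the 76 tested mitochondrial ribosomal protein genes, 67 had values below 0 (median -0.14), with Mrpl39 at -0.36 (SE 0.14). In 3 of the 76 (Mrpl39, Mrpl18 and Mrpl51) the labelled knockout libraries all lay below wild type, against 0.618% of all genes tested. The lowest wild-type and highest labelled knockout values were 33.2 and 30.8 CPM for Mrpl39, 37.4 and 36.95 for Mrpl18 and 59.3 and 59.1 for Mrpl51. Of 77 cytosolic ribosomal protein genes, 41 had values below 0 (median -0.0088). Rpl26 had -0.54 (SE 0.18) and Rpl24, counted at only 0.86 to 2.41 CPM, had 0.73 (SE 0.32). Of 14 cell cycle genes, 13 had values below 0 (median -0.30), with Mcm7, part of the replicative helicase, at -0.34 (SE 0.18). Mcm6 had -0.37 (SE 0.20).

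The regulators of respiratory genes were mixed in sign, with 8 of 13 tested below 0 and a median of -0.073. Tfam, which packages and transcribes mitochondrial DNA, had -0.22 (SE 0.19), and the coactivator Ppargc1b had -0.31 (SE 0.27). The coactivator Ppargc1a and the nuclear receptor Esrra had 0.18 each (SE 0.28 and 0.22). Nrf1 and Gabpa, whose cores were searched in the promoters above, had 0.082 (SE 0.14) and -0.073 (SE 0.094). Of the 13 mitochondrially encoded subunits, 10 had values below 0 (median -0.055), from -0.55 for mt-Co3 (SE 0.56) to 0.36 for mt-Nd4l (SE 0.41).

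Copies and overlapping records may affect some of these values, which was not tested. The name rule also matches 8 processed pseudogenes, of which Ndufab1-ps had 1516 counts over the 8 libraries, Ndufs5-ps 451 and the other 6 at most 156 each. Ndufs5-ps had 346 counts in labelled knockout replicate 3 and 11 to 20 in the others, and Ndufs5 itself was lowest in that library (29.2 CPM, against 35.8 to 54.8 in the others). Whether reads were split between the pair was not tested. Ndufb1-ps, though named as a pseudogene, is listed as protein-coding and counts as a member.

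Another gene record overlaps 32 of 77 members, on the same strand in 8 and on the other strand in 27. The strand setting of the count step is unknown (not given in the sources used here). Ndufb2, the lowest tested member per length, shares 4022 bases of its span with Gm42420, a protein-coding record on the same strand with 0 counts. Its last bases also overlap Braf on the other strand. Cox4i1 and Ndufb8 likewise share their spans with protein-coding records on the same strand at 0 counts. Over the 8 libraries Cox4i1 itself had 64045 counts, Ndufb8 7424 and Ndufb2 1390. Across the 70 members, the log2 fold change was weakly related to the gene length of the table (Pearson's r = -0.23, Spearman's rho = -0.31), against -0.025 and -0.014 across all genes tested. For the deviation of labelled knockout replicate 4 the relation was -0.32 and -0.40 across members, against 0.017 and 0.013 across all genes tested. These are descriptions over genes of the same libraries, which are not independent replicates.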

How the data were processed

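A strand-marking kit was used for the crypt libraries, per the labels' protocols. The submitters' processing notes name HISAT2 and DESeq2 and no version. The read counter, strand setting and build were not given in the sources used here. All 77 members had the coordinates of GENCODE M21 (GRCm38).

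The authors deposited whole-number counts per gene and library, 55880 genes, of which 28883 had a count. The FPKM the authors deposited equal counts over gene length and a scaled library size, as checked on genes with at least 50 counts. Group means in the deposited table, a signal, were not used. Log2 fold changes and p-values that the authors deposited appear only where their table is named. A deposited heat map table of FPKM repeats 670 genes.

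The test of the counts was that of edgeR 4.0.16 under R 4.3.3 (robust quasi-likelihood test, TMM, filterByExpr, Benjamini-Hochberg adjustment over all genes tested, threshold 0.05). The SE is the log2 fold change over the square root of F, an approximation. Log2 CPM used a prior count of 2. Other settings tried were DESeq2 1.42.0, limma-voom (limma 3.58.1), size factors by RLE, a replicate block, no filter, a minimum of 5 CPM in 4 libraries and each library left out. The test was checked on simulated data.

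Members and gene lists were chosen with earlier results of these data known. Named members are the core subunits, the isoforms with their partners, the 3 smallest p per direction and complex, and the 3 highest and lowest by FPKM, with the 2 smallest p of each pathway list and 7 regulators and carriers. Ndufab1, Ndufc1, Ndufb2, Ndufs5, Ndufaf4 and Ndufaf5 were added after their values were seen. Counting error alone is covered by the limits given for counts of 0, since reads carry no molecular identifiers. The values of 1 tested member are not reported here, although it is counted in the summaries.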

Additional observations from a re-analysis of the deposited data

Results flagged for a closer look

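Among 150 groups of 4 libraries, those of the 70 tested members, of the mean level of each complex and of the mean over all members, 9 held a library whose gap to the other 3, as a part of the group's range, was above Dixon's critical value; chance alone gives about 1 in 20. In labelled knockout replicate 4, Cox6b2 was at 12.9 CPM against 2.36 to 3.68 in the other 3 libraries of its group, and Ndufa5 at 49.5 against 61.9 to 63.6. In labelled knockout replicate 3, Ndufa11 was at 41.55 CPM (46.3 to 46.9 in the others) and Ndufaf6 at 7.43 (6.18 to 6.34). In labelled knockout replicate 1, Ndufa8 was at 83.0 CPM (74.0 to 75.2). In wild type replicate 1, Ndufa6 was at 96.8 CPM (116.6 to 119) and Ndufaf3 at 13.9 (15.6 to 15.9). In wild type replicate 4, Ndufa7 was at 61.6 CPM (50.9 to 52.3) and Uqcr10 at 157 (130.1 to 133).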

How the results depend on the processing

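No member passed the threshold in any of the 15 alternative settings, and the smallest adjusted p of a named member was 0.576. Over all genes, 24 passed with DESeq2 (20 higher, 4 lower) and 5 without the filter, against 3 with edgeR; between 2 and 3 passed when libraries were left out in turn. The 75 medians under the alternatives were all below 0, but these settings share libraries. With both libraries numbered 4 left out, chosen after seeing the data, the complex I median was -0.023. In promoters without the downstream bases the YY1 core was in 0% of members, against 0.71% of all genes. The NRF1 core was then in 9.84% of members (2.56% of all genes, 4.83% of those tested). The ETS core was in 3.28% (3.23% and 6.55%).

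Of 494 values of named members under alternatives, 19 had the other sign, in 11 genes. Leaving out libraries in turn gave -0.057 to 0.12 for Ndufa4, -0.038 to 0.13 for Uqcrq, -0.0025 to 0.092 for Ndufa7, -0.20 to 0.0084 for Cox5b, -0.15 to 0.39 for Uqcrc1, -0.072 to 0.19 for Cox7a2l, -0.18 to 0.90 for Cox6b2 and -0.13 to 0.37 for Cox7a1. Without both libraries numbered 4, Ndufs7 had 0.033, Ndufs8 0.025, Cox5b 0.022, Uqcr10 0.016, Cox6b2 -0.18 and Cox7a1 -0.0043. Beyond fewer libraries, the cause was not tested.

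Replicate numbers did not pair the libraries: same-numbered libraries correlated at -0.39 to 0.075 over 4 pairs, and 1 of 8 libraries correlated best with its own number. With a replicate block, 2 genes and 0 members passed, and the medians were -0.13 over all members and -0.18, -0.18, -0.12 and -0.098 for complexes I to IV. With 4 libraries a group the SE of a member, 0.097 to 0.50, was of the size of the members' own differences.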
